A study of Mus musculus with 15 samples.

Results

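The comparison described here sets Control against the other 4 groups of the series, PGM, PGF, HM and HF: for each gene it asks whether all 4 lay on the same side of Control, and by how much. All 15 samples of the series stand behind it, 3 in each group, each a total RNA library from CD-1 hypothalamus (CD-1 is an outbred mouse stock) on postnatal day 15. Whether a sample is a single animal is not stated. The series title places the study in the F2 generation and concerns thyroid hormone. The labels give each group by its code alone, so the exposure, the line of descent and the sex of the animals behind PGM, PGF, HM, HF and Control are not known here, and the codes are used as names. The measurement was 1 mean per transcript and group in RPKM (reads divided by the length of the transcript in kilobases and by the mapped reads of the library), a level per length that can be set side by side between genes. With 1 mean per group there is no spread between samples, no test and no p-value for any value below, and the depth behind the values is unknown. The 4 differences of a gene also share the same Control value, so they are not 4 independent observations. The transcripts of a gene name were replaced by their median, and the 17481 of 24831 names whose mean over the 5 groups reached 1 RPKM were kept. Differences are means of log2(RPKM + 0.5) in the 4 groups minus that in Control, and they understate the fold of genes with low levels.

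The labelled tissue was present in the values. Among its defining genes, Pmch (melanin-concentrating hormone) was at 524 RPKM in Control, 544 in HF, 541 in HM, 591 in PGM and 604 in PGF, and Hcrt (hypocretin) was at 178 RPKM in Control, 185 in HF, 185 in HM, 167 in PGM and 198 in PGF. Both peptides were abundant and differed little between groups. By their mean over the 5 groups, the peptides Avp and Oxt ranked above 98.2% and 97.6% of kept genes. The transcription factors Nkx2-1, Otp and Sim1 ranked lower, above 48.5%, 22.3% and 18.5%, and the peptide Agrp above 37.5%. These genes were not all as level: Otp, Sim1, Avp and Oxt were below Control in all 4 groups. Avp, for example, was at 659 RPKM in Control and 267 in PGF. Because the tissue was taken in bulk, fewer cells of a type and less RNA per cell cannot be told apart in anything that follows.

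The hypothalamus holds neurons that release peptides into the blood or onto other brain areas, among them the cells that make thyrotropin-releasing hormone and so set the level of thyroid hormone in the body. Thyroid hormone enters the brain through membrane transporters, is activated or broken down by deiodinases, and acts through nuclear receptors on genes that include many of the programme of myelination. Small nucleolar RNAs (snoRNAs), which come up repeatedly below, are mostly cut out of introns of host genes: the H/ACA kind guides the change of uridine to pseudouridine in ribosomal and spliceosomal RNA, and the C/D kind guides methylation of the ribose. Rnu11 and Rnu12 are the U11 and U12 small nuclear RNAs, which recognise the rare introns handled by the minor spliceosome.

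Small RNA genes made up a large part of the genes farthest from Control, and the sequences of those the results turn on are shown for that reason. The snoRNA and snRNA sequences come from the GENCODE M21 transcripts (GRCm38) and read 5′ to 3′. Capitals mark the ACA box of H/ACA snoRNAs, the C and D boxes of the C/D snoRNA, and the ATTTTT stretch in Rnu11 and Rnu12. Snora23 lies at chr7:110046364-110046547, Snora64 at chr17:24720772-24720905, Snora35 at chrX:146994381-146994508, Snord87 at chr1:9942463-9942549 (minus strand), Rnu11 at chr4:132270080-132270213 (minus strand) and Rnu12 at chr15:83149644-83149794, and those without a strand named are on the plus strand.
Snora23: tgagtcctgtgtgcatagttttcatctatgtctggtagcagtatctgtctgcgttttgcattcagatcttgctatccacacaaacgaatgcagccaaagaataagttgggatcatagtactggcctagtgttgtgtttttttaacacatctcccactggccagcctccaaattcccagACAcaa
Snora64: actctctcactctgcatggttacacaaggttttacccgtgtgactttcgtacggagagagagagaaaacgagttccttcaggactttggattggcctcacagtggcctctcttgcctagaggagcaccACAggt
Snora35: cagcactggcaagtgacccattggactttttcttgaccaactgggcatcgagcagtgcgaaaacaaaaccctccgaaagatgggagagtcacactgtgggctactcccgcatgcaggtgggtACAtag
Snord87: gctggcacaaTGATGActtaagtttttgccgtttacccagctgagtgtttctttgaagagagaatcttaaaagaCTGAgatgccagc
Rnu11: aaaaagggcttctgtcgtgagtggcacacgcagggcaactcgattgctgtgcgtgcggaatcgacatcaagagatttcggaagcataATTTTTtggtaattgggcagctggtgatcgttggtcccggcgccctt
Rnu12: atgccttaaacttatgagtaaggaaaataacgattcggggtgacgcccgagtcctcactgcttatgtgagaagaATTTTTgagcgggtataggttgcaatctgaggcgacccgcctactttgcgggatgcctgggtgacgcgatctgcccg

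Of the 32 H/ACA snoRNAs kept, 26 (81.2%) had the letters ACA exactly 3 bases from the 3′ end, against 244 of 1005 (24.3%) annotated mouse snoRNAs of 100 to 200 bases. TGATGA within the first 20 bases together with CTGA within the last 14 was found in 27 of 41 C/D snoRNAs with a sequence (65.9%), against 287 of 452 (63.5%) annotated snoRNAs of 60 to 99 bases. Both searches were on the transcript strand. They describe the letters only.

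A pair of microRNA genes on chromosome 12 lay on opposite sides of Control. Their mature arms are given from RefSeq (GRCm38.p6) with the seed, bases 2 to 8, in capitals, and no seed is shared among the 4 arms.
mmu-miR-758-5p: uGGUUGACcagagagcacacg
mmu-miR-758-3p: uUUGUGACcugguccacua
mmu-miR-409-5p: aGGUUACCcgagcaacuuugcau
mmu-miR-409-3p: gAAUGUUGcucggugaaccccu

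Across all kept genes, 4071 (23.3%) had all 4 groups above Control, 4374 (25.0%) had all 4 below it, and 9036 (51.7%) were mixed. The distances were mostly small. Among the 8445 genes with all 4 groups on one side, 6144 (72.8%) had at least 1 group closer to Control than 0.1 on the log2 scale. Only 35 genes (0.200%) were at least 1.5-fold higher than Control in each of the 4 groups, and 4 (0.0229%) were at least 1.5-fold lower in each. When the mean of the 4 differences had to reach 1.5-fold instead, 136 genes (0.778%) were higher and 59 (0.338%) lower.

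By the plain count Control stood apart little more than PGM did. It held the highest or the lowest value of 8445 genes (48.3%), PGM of 8164 (46.7%), PGF of 7163 (41.0%), HF of 5824 (33.3%) and HM of 5143 (29.4%). At 1.5-fold from each of the others, Control was lowest at 35 genes, more than PGM and HF with 10 each, PGF with 9 and HM with 3. In the other direction PGF was highest by that margin at 38 genes, HF at 18, PGM at 8, HM at 5 and Control at 4.

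**Figure D1:**
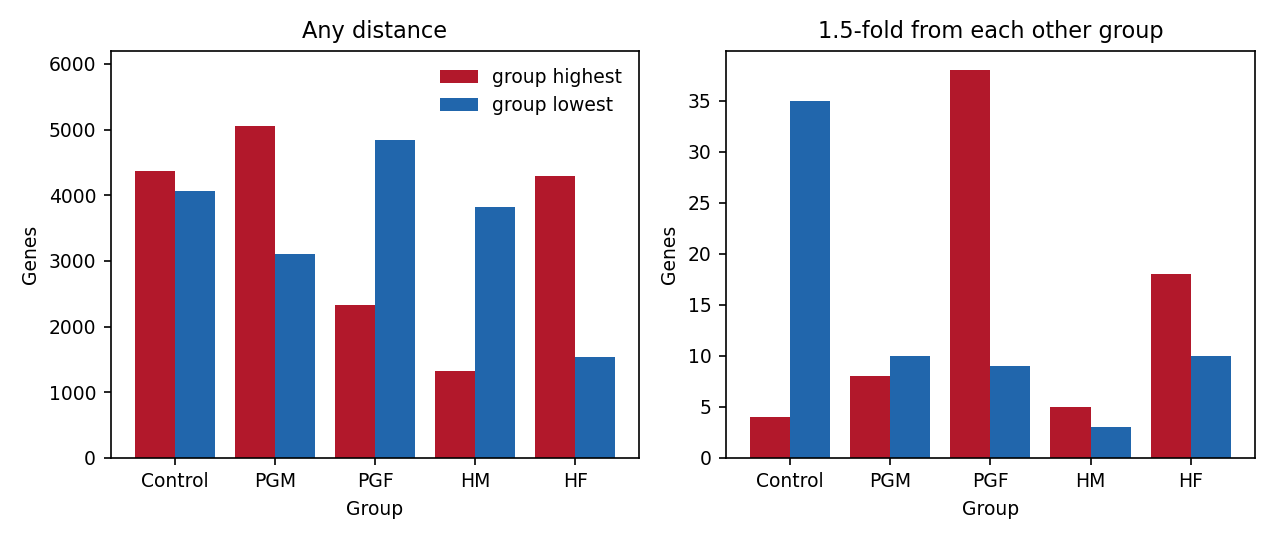
Number of kept genes (vertical axis) at which each of the 5 groups (horizontal axis) had the highest value, red, or the lowest, blue; the left panel counts any distance, the right panel a distance of at least 1.5-fold from every other group. Control stands out in the right panel by its 35 lowest genes, and PGF by its 38 highest.

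HF was the group nearest to Control for 4735 of the 8445 same-side genes (56.1%), HM for 2124 (25.2%), PGM for 804 (9.52%) and PGF for 782 (9.26%). Among genes with all 4 below Control, HF was nearest in 69.2%. Leaving out a group raised these counts unequally. Below Control, 6642 genes passed without HF and 4583 to 4980 without 1 of the other groups. Above Control, 5353 passed without HM, 4887 without HF, 4642 without PGF and 4401 without PGM. At 1.5-fold in each remaining group, 72 genes were higher and 52 lower without HF, against 35 to 46 higher and 5 or 6 lower without 1 of the others. By single groups, 58.6% of kept genes were above Control in HF, 50.9% in PGM, 44.2% in PGF and 39.8% in HM.

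The 35 genes at 1.5-fold above Control in each group comprised 14 protein-coding names, 7 H/ACA and 2 C/D snoRNAs, 1 further snoRNA, 2 spliceosomal snRNAs, 3 microRNA hairpins with a matched biotype, 1 intronic transcript, 1 polymorphic pseudogene and 4 names with no matched biotype. Among the last 4 are the microRNA genes Mir1839 and Mir677. The protein-coding names Kdm5d and Smcy stand for the same gene. The median length of the 33 with a known length was 151 bases. The farthest group was PGF for 16 of them and PGM for 14. HM was the nearest for 17.

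**Figure D2:**
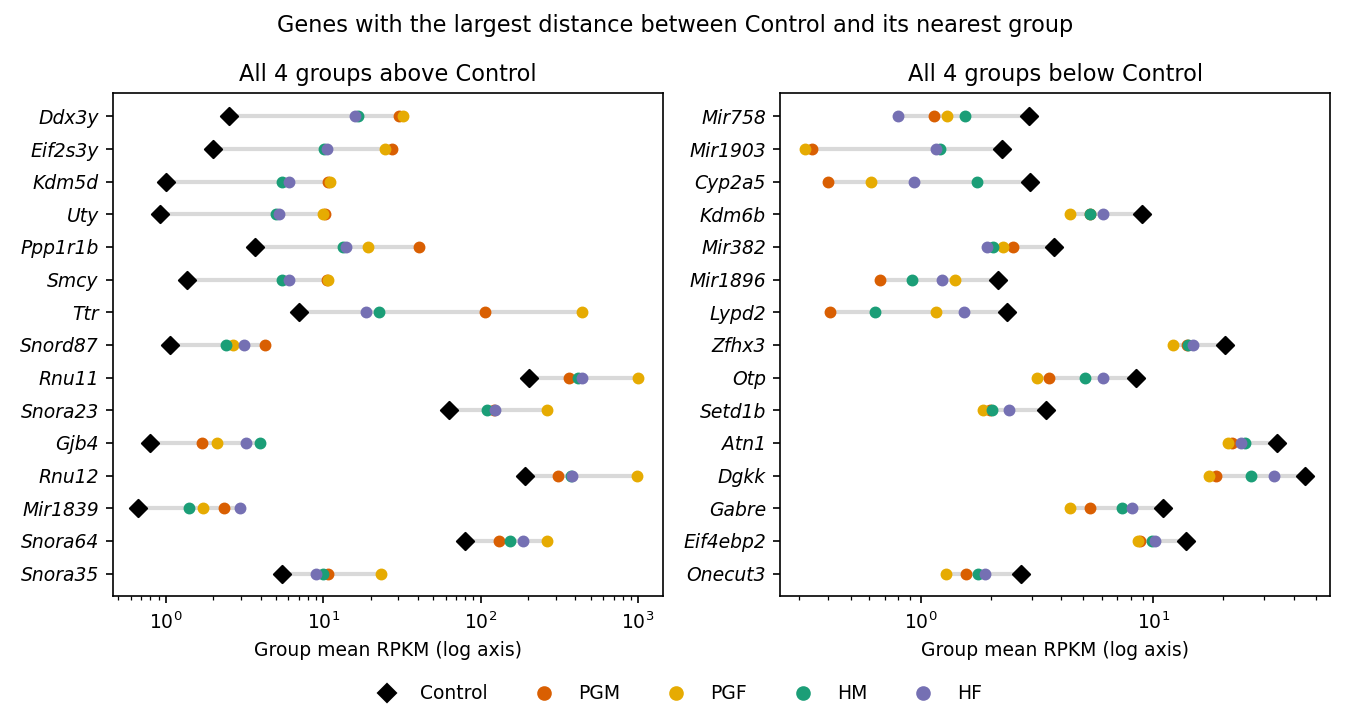
Group mean RPKM (log axis) of the named genes with the largest distance between Control and its nearest group, with all 4 groups above Control on the left and below it on the right; black diamonds are Control and coloured points the 4 other groups. Y-linked genes, Ppp1r1b and Ttr lead the left panel, and the right panel shows smaller distances.

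Of the annotated gene types with at least 10 kept genes, snoRNAs had the largest share above Control, 58.4% of 77. The wider snoRNA list is not limited to that annotated type, and all 83 of its kept members had a matched transcript length. Of these 83, 50 (60.2%) had all 4 groups above Control and 1 (1.2%) had all 4 below, with a median difference of 0.34. Over all kept genes the values were 23.3%, 25.0% and -0.007. H/ACA snoRNAs differed more than C/D snoRNAs: 24 of 32 were above Control in all 4 groups and 0 below, with a median of 0.53, while 19 of 42 C/D snoRNAs were above and 1 below, with a median of 0.21. For the H/ACA class the median was 0.31 in HF, 0.55 in HM, 0.46 in PGM and 0.81 in PGF, so PGF was farthest. For the C/D class the medians lay between 0.21 and 0.29 in the 4 groups.

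Snora23, whose sequence with its ACA box is printed above, was at 62.7 RPKM in Control, 123 in HF, 110.3 in HM, 122 in PGM and 265 in PGF. Snora64 was at 80.1 RPKM in Control, 186 in HF, 153 in HM, 130.0 in PGM and 263 in PGF. In both, Control was lowest, PGF was highest, and the other 3 groups lay between. Snora35, hosted in an intron of the serotonin receptor gene Htr2c, was at 5.51 RPKM in Control, 9.06 in HF, 9.97 in HM, 10.7 in PGM and 23.2 in PGF, again with PGF highest and the remaining groups close together. Snord87, the C/D snoRNA shown, was at 1.07 RPKM in Control, 3.12 in HF, 2.42 in HM, 4.27 in PGM and 2.69 in PGF, and here PGM was highest. Snord87 was near 1 RPKM in Control, a low level at which small absolute differences give large folds.

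The host genes did not show the same distances, though some of them were above Control as well. The 29 H/ACA snoRNAs with a matched host came from 27 distinct host genes, whose median difference was 0.033, with 6 above Control in all 4 groups and 5 below. The 29 snoRNAs themselves had a median of 0.54. Of the 21 H/ACA snoRNAs that were above Control and had a host, 3 had a host above Control and 4 a host below it. Snora23 is hosted by Ipo7, a nuclear import receptor, which was at 96.7 RPKM in Control, 99.2 in HF, 99.7 in HM, 102.7 in PGM and 96.5 in PGF. Snora64 is hosted by Rps2, a ribosomal protein gene, which was at 1052 RPKM in Control and between 945 and 1069 in the others. Htr2c, host of Snora35, was above Control in all 4 groups at 62.7 RPKM in Control and 66.5 to 75.6 in the others. So was Snhg6, host of Snord87, at 26.9 RPKM in Control and 29.75 to 34.9 in the others. The 39 C/D snoRNAs with a host came from 32 distinct genes, with a median difference of 0.043, of which 15 were above Control in all 4 groups and 7 below. Over all kept genes the shares were 23.3% and 25.0%. Of the 17 C/D snoRNAs that were above Control and had a host, 9 had a host above Control and 3 a host below it.

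**Figure D3:**
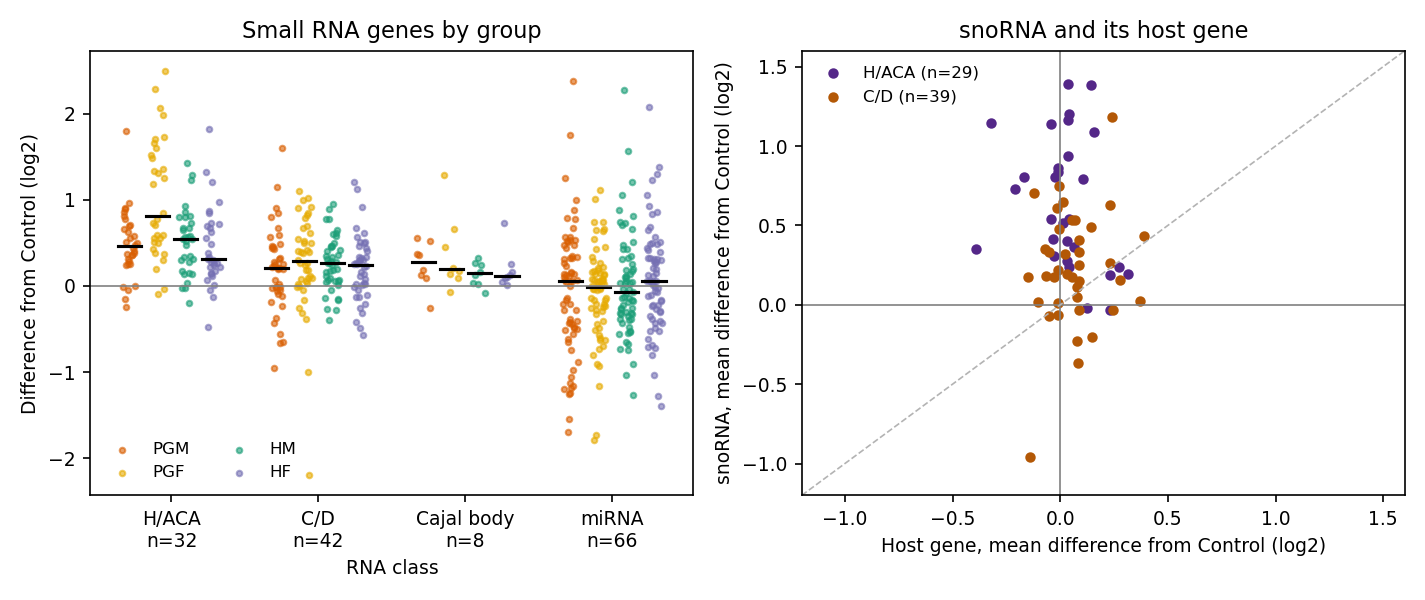
Left, difference from Control (log2, vertical axis) of each kept small RNA gene in PGM, PGF, HM and HF by class, with black bars at the medians; right, mean difference of each snoRNA (vertical axis) against that of its host gene (horizontal axis), with 1 point per pair, so that a host of several snoRNAs appears more than once, and the dashed line at equality. H/ACA snoRNAs lie mostly above 0 in all 4 groups while their hosts stay close to 0, and microRNA hairpins spread to both sides.

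The spliceosomal RNAs were above Control as well, 3 of 3 in all 4 groups. Rnu11 was at 204 RPKM in Control, 440.2 in HF, 416 in HM, 363 in PGM and 994 in PGF, and Rnu12 was at 191 RPKM in Control, 383 in HF, 374 in HM, 312 in PGM and 985 in PGF. In these partners of the minor spliceosome Control was lowest and PGF far above every other group. Rnu1b2, a U1 gene of the major spliceosome with near-identical copies that reads may be shared with, was at 21709 RPKM in Control, 28616 in HF, 26822 in HM, 31143 in PGM and 28774 in PGF. Its groups lay closer together, PGM being the highest. Of 8 Cajal body RNAs, which guide changes of the spliceosomal RNAs, 6 were above Control in all 4 groups and 0 below.

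MicroRNA hairpins showed no common side: 13 of 66 were above Control in all 4 groups and 13 below, with a median of -0.012. Mir758 was at 2.92 RPKM in Control, 0.8 in HF, 1.55 in HM, 1.14 in PGM and 1.30 in PGF, with Control highest and HF lowest. Mir409, which the naming rule did not take and which was chosen after its values were seen, was at 0.48 RPKM in Control, 2.05 in HF, 1.31 in HM, 1.83 in PGM and 1.63 in PGF, with Control lowest. Both lie within the same imprinted microRNA region of chromosome 12, and Mir382 from that region was at 3.73 RPKM in Control, 1.93 in HF, 2.05 in HM, 2.50 in PGM and 2.25 in PGF. These 3 levels are low for such short RNAs, whose RPKM rests on few reads per unit. The sources used here do not give whether the libraries kept RNA of this size, and the part of size selection in the small RNA values was not tested.

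The largest distances between Control and its nearest group belonged to genes on the Y chromosome. All 4 kept Y-linked list members were above Control in every group. Of all 6 kept genes placed on chromosome Y, 5 were above Control in all 4 groups and 1 was below. Ddx3y, an RNA helicase at chrY:1260771-1286629, was at 2.52 RPKM in Control, 15.9 in HF, 16.8 in HM, 30.4 in PGM and 31.97 in PGF, a mean difference of 2.93. Uty, a histone demethylase relative, was at 0.92 RPKM in Control, 5.22 in HF, 5 in HM, 10.2 in PGM and 10.015 in PGF. Control was far below the rest, PGM and PGF were alike, and HM and HF lay between at about the same level. Kdm5d, a histone demethylase that the table also lists as Smcy, was at 1 RPKM in Control, 6.03 in HF, 5.49 in HM, 10.7 in PGM and 10.99 in PGF, and the translation factor gene Eif2s3y was at 2 RPKM in Control, 10.5 in HF, 10.1 in HM, 27.5 in PGM and 24.8 in PGF. The summed RPKM of the 5 Y-linked list members was 6.44 in Control, 37.7 in HF, 37.3 in HM, 78.8 in PGM and 77.7 in PGF, and Usp9y was at or near 0 throughout.

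The X side was the mirror of this. Xist, the RNA that coats the inactive X chromosome, was at 44.005 RPKM in Control, 35.4 in HF, 26.4 in HM, 14.2 in PGM and 11.6 in PGF, highest in Control and lowest in PGF. All 7 genes of the list of X-linked genes expressed from or escaping the inactive X were below Control in all 4 groups, against 25.0% of kept genes. Kdm5c, the X-linked counterpart of Kdm5d, was at 52.3 RPKM in Control, 47.8 in HF, 46.2 in HM, 42.2 in PGM and 41.4 in PGF, a smaller difference in the same order. Tsix, the antisense partner of Xist, was at 15.9 RPKM in Control, 12.7 in HF, 9.32 in HM, 4.89 in PGM and 4.32 in PGF, and without strand information the reads of this pair cannot be told apart. The labels give no sex, so group and the mix of sexes in each group cannot be told apart, and its part in the other results was not tested. With the genes of chromosomes X and Y left out, 28 genes were still 1.5-fold higher than Control in each group and 4 lower.

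Outside the sex chromosomes, Ttr and Ppp1r1b were the protein-coding genes farthest above Control. Ttr encodes transthyretin, the thyroid hormone carrier made by the choroid plexus, and was at 7.01 RPKM in Control, 18.7 in HF, 22.8 in HM, 106 in PGM and 440.5 in PGF. PGF was highest, PGM next, and HM and HF were far lower though still above Control. Folr1, a folate receptor of the same epithelium, was at 1.35 RPKM in Control, 1.56 in HF, 1.68 in HM, 2.44 in PGM and 5.67 in PGF. Of 11 kept choroid plexus markers 5 were above Control in all 4 groups and 2 below. The summed RPKM of all 15 members of that list was 206 in Control, 226 in HF, 244 in HM, 358 in PGM and 803 in PGF. Ttr is itself a member, so its own level enters these sums. The part of choroid plexus tissue in the Ttr values was not tested. Kcnj13, a potassium channel of the choroid plexus, went the other way at 4.62 RPKM in Control, 3.58 in HF, 2.27 in HM, 1.75 in PGM and 4.27 in PGF.

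Ppp1r1b encodes DARPP-32, the dopamine-regulated phosphatase inhibitor of striatal neurons, at chr11:98348404-98357796. Its level was 3.70 RPKM in Control, 13.9 in HF, 13.4 in HM, 40.4 in PGM and 19.2 in PGF, with Control lowest and PGM the highest. Adora2a, the adenosine receptor of striatal neurons, was at 2.19 RPKM in Control, 5.74 in HF, 3.62 in HM, 11.7 in PGM and 4.58 in PGF. The dopamine receptor Drd1a was at 4.70 RPKM in Control, 8.04 in HF, 6.48 in HM, 12.2 in PGM and 6.65 in PGF. In each of these PGM was highest and Control lowest. Of 16 striatal markers, 10 (62.5%) were above Control in all 4 groups and 2 below, with a median of 0.26. Their summed RPKM was 484 in Control, 518 in HF, 502 in HM, 658 in PGM and 519 in PGF. Penk, also abundant in striatum, was mixed at 93.8 RPKM in Control, 99 in HF, 90.4 in HM, 101 in PGM and 81.7 in PGF.

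By their median, markers of the thalamus, which adjoins the hypothalamus, stood above Control in 3 groups and not in HF. The median of 20 markers was 0.39 over the 4 groups but -0.061 in HF, and 4 were above Control in all 4 groups and 2 below. Without HF 15 were above and 3 below. Tnnt1, a troponin of slow muscle that thalamic neurons also express, was at 4.62 RPKM in Control, 7.58 in HF, 9.77 in HM, 20.95 in PGM and 18.3 in PGF. Prkcd, a protein kinase C, was at 35.01 RPKM in Control, 38.2 in HF, 69.2 in HM, 154 in PGM and 156 in PGF. The calcitonin receptor partner Ramp3 was at 21.965 RPKM in Control, 23.1 in HF, 34.4 in HM, 66.1 in PGM and 65.4 in PGF. PGM and PGF were alike in all 3, HM was lower, and HF was closest to Control. These 3 were above Control in HF too, unlike most of the list. In HF 5 of the 20 markers were above Control, against 17 in PGM, 16 in PGF and 15 in HM. Gabrd, the GABA receptor subunit of extrasynaptic receptors, was at 8.28 RPKM in Control, 9.72 in HF, 17.5 in HM, 43.7 in PGM and 42.2 in PGF. Slc17a7, a vesicular glutamate transporter, was at 20.2 RPKM in Control, 23.7 in HF, 27.2 in HM, 53.9 in PGM and 55.2 in PGF. HF was again nearest to Control in both. The summed RPKM of the thalamic list was 1275 in Control, 1216 in HF, 1348 in HM, 1739 in PGM and 1582 in PGF. None of the 20 was at 0 in any group, and the part of neighbouring tissue in the values was not tested.

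Most myelin genes were above Control in every group. Of 25 genes of myelin and mature oligodendrocytes, 18 (72.0%) had all 4 groups above Control and 0 had all 4 below. Mbp, a main protein of compact myelin, was at 3228 RPKM in Control, 3439.7 in HF, 4352 in HM, 4987 in PGM and 6448 in PGF. It ranked the groups as Control, HF, HM, PGM and PGF from lowest to highest. Hapln2, a matrix protein at nodes of Ranvier, was at 4.16 RPKM in Control, 5.62 in HF, 8.62 in HM, 11.96 in PGM and 14.2 in PGF, and Mog, on the outer face of the sheath, was at 143 RPKM in Control, 162 in HF, 217 in HM, 252 in PGM and 337 in PGF. The median difference of the list was 0.48 over the 4 groups and 0.065 in HF alone, and all 25 members were above Control in PGM and in PGF, 21 in HM and 19 in HF. Genes of oligodendrocyte precursors had no such excess: 1 of 12 was above Control in all 4 groups and 6 below, with a median of -0.13. Ptprz1, a phosphatase of these precursors, was at 170.4 RPKM in Control, 154 in HF, 140.4 in HM, 136 in PGM and 132 in PGF.

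The nuclear genes of oxidative phosphorylation, which build the respiratory chain and ATP synthase, showed small differences of a common sign. Of 84, 58 (69.0%) were above Control in all 4 groups and 0 below, with a median of 0.099. Cox7c, a subunit of cytochrome oxidase, was at 627 RPKM in Control, 669 in HF, 686 in HM, 797 in PGM and 794 in PGF. Ndufs7, of complex I, was at 218 RPKM in Control, 240.1 in HF, 235 in HM, 244 in PGM and 253 in PGF. In both, every group lay above Control by a small margin. Above Control were 81 of 84 members in PGM, 79 in PGF, 78 in HF and 63 in HM.

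Cholesterol synthesis was also on the higher side, with 14 of 24 genes above Control in all 4 groups and 2 below, and a median of 0.14. Fdps, which makes farnesyl diphosphate, was at 137 RPKM in Control, 151 in HF, 149.8 in HM, 163 in PGM and 171 in PGF, and Nsdhl, a later step, was at 32.6 RPKM in Control, 36.1 in HF, 36.04 in HM, 42.4 in PGM and 42 in PGF. Both were highest in PGM or PGF. Srebf2, the transcription factor that drives the pathway, was below Control in every group at 70.7 RPKM in Control, 60.4 in HF, 62.9 in HM, 65.2 in PGM and 60.8 in PGF. Among genes that respond to glucocorticoids 9 of 17 (52.9%) were above and 1 below, with a median of 0.15. By group the median was 0.229 in HF, 0.302 in HM, 0.009 in PGM and 0.152 in PGF, so the list was nearly level in PGM. The kinase gene Sgk1 was at 42.6 RPKM in Control, 55.1 in HF, 50.6 in HM, 52.6 in PGM and 57.9 in PGF. Zbtb16 was at 9.54 RPKM in Control, 11.3 in HF, 16.7 in HM, 10.3 in PGM and 11.3 in PGF, with HM highest. Of 27 heat shock and unfolded protein response genes 12 were above and 2 below, with a median of 0.045, and the split was 8 to 2 when each group was centred on its median difference and 5 to 3 against genes of like length. The chaperones did not share a direction: Hspb1 was at 13.97 RPKM in Control, 16.03 in HF, 15.6 in HM, 22.7 in PGM and 19.9 in PGF and Hsph1 at 116 RPKM in Control, 92.1 in HF, 99.2 in HM, 86.7 in PGM and 84.8 in PGF.

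Genes that mark the hypothalamus itself lay below Control more often than above it. Of 34 hypothalamic transcription factors 17 (50%) had all 4 groups below Control and 3 (8.82%) above, with a median of -0.21. Otp, needed for the oxytocin, vasopressin and thyrotropin-releasing hormone neurons, was at 8.45 RPKM in Control, 6.05 in HF, 5.07 in HM, 3.56 in PGM and 3.15 in PGF (chr13:94875602-94885130). Sim1, which acts in the same neurons, was at 5.68 RPKM in Control, 4.83 in HF, 4.39 in HM, 2.83 in PGM and 2.88 in PGF. Nr5a1, the factor of the ventromedial nucleus, was at 5.41 RPKM in Control, 4.46 in HF, 4.41 in HM, 3.03 in PGM and 2.71 in PGF, and Vax1 was at 7.78 RPKM in Control, 6.05 in HF, 5.72 in HM, 5.53 in PGM and 4.51 in PGF. Control was highest in all 4 genes, PGM and PGF were lowest, and HM and HF came between. The summed RPKM of the list was 404 in Control, 397 in HF, 369 in HM, 349 in PGM and 330 in PGF.

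Neuropeptides and hypothalamic hormones had 12 of 34 members below Control in all 4 groups and 2 above, with a median of -0.090. Avp, vasopressin, was at 659 RPKM in Control, 521 in HF, 525 in HM, 352 in PGM and 267 in PGF. Oxt, oxytocin, was at 504 RPKM in Control, 418 in HF, 459 in HM, 289 in PGM and 210.4 in PGF. Trh, thyrotropin-releasing hormone, was at 135 RPKM in Control, 124 in HF, 111 in HM, 87.9 in PGM and 75.95 in PGF. All 3 were highest in Control and lowest in PGF. Adcyap1, the peptide PACAP, was at 88.1 RPKM in Control, 79.4 in HF, 68.2 in HM, 53.6 in PGM and 54.4 in PGF, and Gal, galanin, was at 46.2 RPKM in Control, 41.2 in HF, 38.7 in HM, 28.3 in PGM and 32.6 in PGF, both with HF nearest to Control. Kiss1, which drives puberty, was low at 2.90 RPKM in Control, 2.73 in HF, 2.34 in HM, 1.19 in PGM and 1.09 in PGF. Sst, somatostatin, was below Control by a smaller margin at 284 RPKM in Control, 259.8 in HF, 256 in HM, 272 in PGM and 256 in PGF. Crh, corticotropin-releasing hormone, was above Control in each group at 9.19 RPKM in Control, 11.5 in HF, 10.6 in HM, 9.62 in PGM and 9.48 in PGF.

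The feeding peptides had no common side. Agrp was at 12.7 RPKM in Control, 16.2 in HF, 18.1 in HM, 6.58 in PGM and 4.64 in PGF, Npy at 83.5 RPKM in Control, 103 in HF, 101 in HM, 69.5 in PGM and 62.5 in PGF and Cartpt at 108 RPKM in Control, 149.6 in HF, 175 in HM, 83.5 in PGM and 90.8 in PGF. In these 3, HM and HF were above Control and PGM and PGF below it. Pomc was at 24.3 RPKM in Control, 20.5 in HF, 22.4 in HM, 16.1 in PGM and 369.7 in PGF, where PGF alone was high. Pomc is also a pituitary gene, and the growth hormone gene Gh was at 39.8 RPKM in Control, 16.5 in HF, 62.1 in HM, 59.7 in PGM and 1363 in PGF. The 10 kept pituitary markers had 1 above Control in all 4 groups and 1 below, and the whole list summed to 2425 RPKM in PGF against 449 to 478 in the other groups, with Prl, Pou1f1, Ghrhr and Hesx1 among those listed at 0 in at least 1 group. Without PGF the mean difference of Pomc was -0.31 in place of 0.74.

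Receptors for energy signals and sex steroids had 11 of 28 members below Control in all 4 groups and 1 above, with a median of -0.19. Esr1, oestrogen receptor alpha, was at 6.89 RPKM in Control, 6.18 in HF, 5.72 in HM, 3.85 in PGM and 3.93 in PGF. Calcr, the calcitonin receptor, was at 30.5 RPKM in Control, 28.4 in HF, 25.6 in HM, 20.1 in PGM and 18.2 in PGF. Irs4, an adaptor of insulin signalling on the X chromosome, was at 67.8 RPKM in Control, 61.8 in HF, 51.2 in HM, 34.8 in PGM and 32.5 in PGF. PGM and PGF were lowest and HF nearest to Control in each, and without HF 21 of the 28 were below. Among GABA and glutamate receptors 16 of 38 were below and 5 above, with a median of -0.038. These genes too are long, and against genes of like length 15 were below and 12 above, with a median of 0.022. The X-linked subunit Gabre was at 10.985 RPKM in Control, 8.09 in HF, 7.33 in HM, 5.34 in PGM and 4.38 in PGF and the kainate receptor Grik3 at 35.8 RPKM in Control, 30.6 in HF, 30.04 in HM, 27.4 in PGM and 24.6 in PGF. Gabrd, whose values are given with the thalamus, is also in this list and was above Control, with a mean difference of 1.47. By single groups, 19 of the 38 were above Control in PGM, 15 in HF, 12 in PGF and 10 in HM.

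The genes of the thyroid hormone axis were spread over both sides. Of 25 genes of transport, activation and receptors, 6 were above Control in all 4 groups and 10 below, with a median of -0.057. Among transporters, Slco1c1, which carries thyroxine across the blood-brain barrier, was at 39.4 RPKM in Control, 47.6 in HF, 43.8 in HM, 48.4 in PGM and 54.8 in PGF. It was above Control in every group, with PGF highest. Dio2, the deiodinase that activates the hormone, was at 14.5 RPKM in Control, 16.8 in HF, 21.6 in HM, 17.7 in PGM and 23.5 in PGF, above Control in all groups with PGF highest. Dio3, which breaks it down, was near 1 RPKM and did not pass the minimum. The receptors Thra, at 404 RPKM in Control, 412 in HF, 383 in HM, 395 in PGM and 365 in PGF, and Thrb, at 10.6 RPKM in Control, 10.3 in HF, 11.9 in HM, 11.97 in PGM and 11.5 in PGF, were mixed. Trhr, a receptor for thyrotropin-releasing hormone, was below Control in all groups at 11.99 RPKM in Control, 11.6 in HF, 10.4 in HM, 8.88 in PGM and 8.04 in PGF.

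Crym, a cytosolic protein that binds thyroid hormone, is also in the list of tanycyte and ependymal markers. Its level was 4.83 RPKM in Control, 13.9 in HF, 10.1 in HM, 21.2 in PGM and 7.96 in PGF, with PGM highest and PGF closest to Control. Of 19 genes that respond to thyroid hormone 4 (21.1%) were above and 2 (10.5%) below, with a median of 0.060, against 23.3% and 25.0% over all kept genes. Hr, a classical target, was at 21.95 RPKM in Control, 24.02 in HF, 28.9 in HM, 32.7 in PGM and 31.1 in PGF. Klf9, another, was at 101 RPKM in Control, 106 in HF, 106 in HM, 123 in PGM and 115 in PGF. Both were lowest in Control by small margins, and Pvalb, a calcium-binding protein of fast-spiking neurons, had a larger distance at 30.3 RPKM in Control, 38.4 in HF, 59.9 in HM, 68.8 in PGM and 84.2 in PGF. Shh was below Control in every group at 8.20 RPKM in Control, 7.50 in HF, 7.08 in HM, 7.22 in PGM and 6.22 in PGF.

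Enzymes of DNA methylation and chromatin had 24 of 54 members (44.4%) below Control in all 4 groups and 4 (7.41%) above, with a median of -0.096. Kdm6b, a demethylase of histone H3 at chr11:69398508-69413675, was at 8.91 RPKM in Control, 6.09 in HF, 5.35 in HM, 5.32 in PGM and 4.39 in PGF, just short of 1.5-fold in HF. Setd1b, a histone methyltransferase, was at 3.46 RPKM in Control, 2.40 in HF, 2.03 in HM, 1.99 in PGM and 1.85 in PGF, and the separately listed name mKIAA1076, an entry for the same gene chosen after its values were seen, was at 4.70 RPKM in Control, 2.96 in HF, 2.82 in HM, 2.44 in PGM and 1.79 in PGF. Crebbp, an acetyltransferase, was at 57.4 RPKM in Control, 50.5 in HF, 47.3 in HM, 45.2 in PGM and 41.9 in PGF, and Tet1, which oxidises methylcytosine, was at 24.2 RPKM in Control, 22.5 in HF, 17 in HM, 17.9 in PGM and 16.4 in PGF. Control was highest in each. These genes are long, and length moved with the side (described further on): with each gene set against genes of like length, a choice made after seeing the data, 20 of 53 were below and 8 above, with a median of -0.038.

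Imprinted genes had 22 of 45 members (48.9%) below Control in all 4 groups and 2 above, with a median of -0.18. Mest, expressed from the paternal copy, was at 174 RPKM in Control, 147 in HF, 105 in HM, 87.8 in PGM and 98.1 in PGF. Peg3, also paternally expressed, was at 672 RPKM in Control, 634 in HF, 587 in HM, 480.1 in PGM and 497 in PGF. Plagl1, a transcription factor, was at 18.3 RPKM in Control, 15.2 in HF, 14.8 in HM, 10.6 in PGM and 13.1 in PGF. Control was highest in each and HF was nearest to it. Some imprinted genes are abundant in the meninges, and Igf2 was mixed at 122 RPKM in Control, 140.0 in HF, 74.8 in HM, 58.5 in PGM and 82.9 in PGF. Against genes of like length the imprinted list had 20 below and 6 above.

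Cyp2a5, a cytochrome P450 on chromosome 7, had the largest mean difference of the named lower genes, at 2.94 RPKM in Control, 0.94 in HF, 1.75 in HM, 0.4 in PGM and 0.61 in PGF, a mean of -1.36 at low levels. Dgkk, an X-linked diacylglycerol kinase, was at 44.7 RPKM in Control, 33.02 in HF, 26.1 in HM, 18.6 in PGM and 17.3 in PGF. Onecut3, a homeobox factor, was at 2.69 RPKM in Control, 1.90 in HF, 1.77 in HM, 1.56 in PGM and 1.28 in PGF, and Zfhx3, another, was at 20.4 RPKM in Control, 14.8 in HF, 14.1 in HM, 14.01 in PGM and 12.2 in PGF. In all of these Control was highest, and HF came nearest to it except in Cyp2a5, where HM did. Atn1, the atrophin gene, was at 33.9 RPKM in Control, 23.8 in HF, 24.8 in HM, 21.8 in PGM and 20.9 in PGF by the median over its transcripts, a mean of -0.56 that shrank to -0.25 with the transcript of the highest mean. Cell cycle genes had 9 of 23 (39.1%) below and 2 (8.70%) above, with a median of -0.12. Immediate early genes had 10 of 24 (41.7%) below and 5 (20.8%) above, also with a median of -0.12. Over all kept genes the shares were 25.0% below and 23.3% above. In HF 13 of the 24 immediate early genes were above Control, with a median of 0.01. Fos was among the lower ones at 42.4 RPKM in Control, 37.2 in HF, 30.4 in HM, 19.95 in PGM and 31.7 in PGF. Dusp1 was on the other side at 16.6 RPKM in Control, 20.5 in HF, 19.96 in HM, 20.4 in PGM and 29.2 in PGF.

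In several large or abundant lists most members were mixed, or the groups disagreed. Of 79 cytosolic ribosomal protein genes 12 were above Control in all 4 groups and 3 below, with 64 mixed, and 55 of 60 replication-dependent histone genes were mixed. The ribosomal count depended on the setting, with 47 above and 3 below without HM, 29 and 2 when each group was centred on its median difference, 12 and 12 without HF, and 9 and 26 against genes of like length. Of the histone genes, 33 were above and 4 below without HM. Both lists were split by group: 75 ribosomal genes were above Control in HF and 16 in HM, and 53 histone genes were above it in PGM and 1 in HM. Meningeal and fibroblast genes had 1 of 20 above and 1 below, with a median of -0.50 that came from PGM, PGF and HM, since HF had 0.17. Ptgds, a prostaglandin synthase of the meninges, was at 1468 RPKM in Control, 1544 in HF, 696 in HM, 538 in PGM and 803 in PGF. Th, the rate-limiting enzyme of dopamine synthesis, was at 62.03 RPKM in Control, 103 in HF, 74.3 in HM, 48.1 in PGM and 82.5 in PGF, below Control in PGM alone. Of 7 kept erythroid genes 4 were below Control in all 4 groups, with the summed RPKM of the list at 5236 in Control, 4647 in HF, 2566 in HM, 3106 in PGM and 4022 in PGF.

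**Figure D4:**
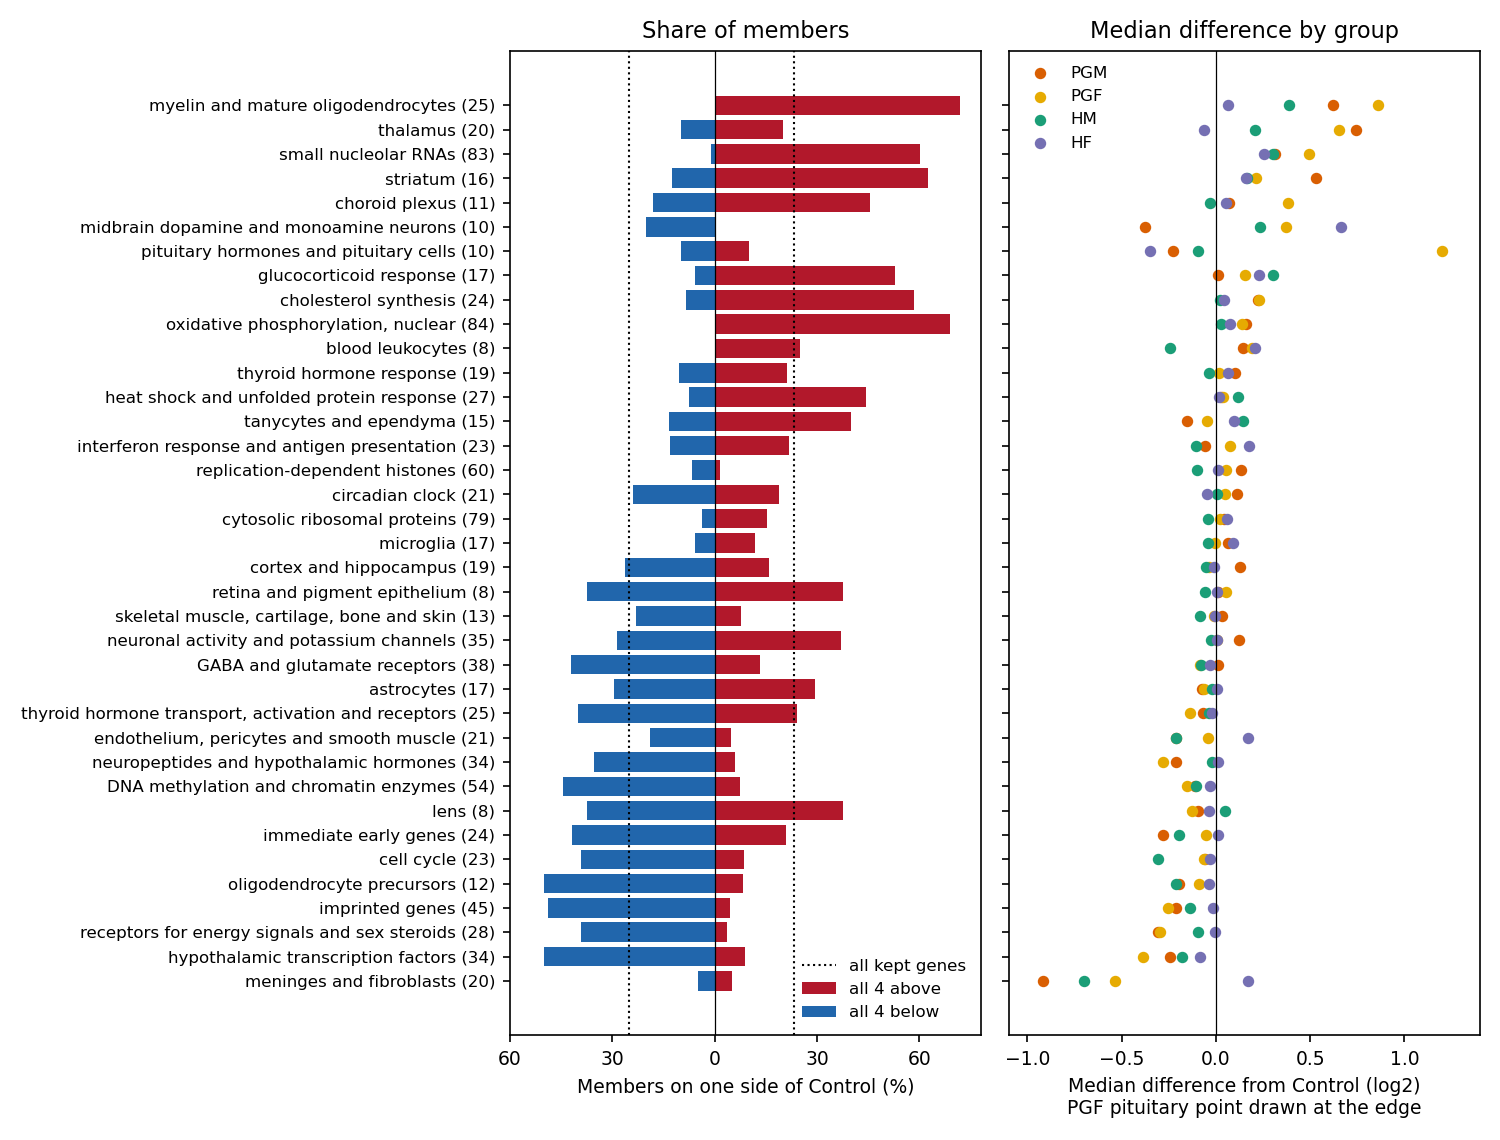
Left, share of the kept members of each gene list (number in brackets) with all 4 groups above Control, red to the right, or below it, blue to the left, with dotted lines at the shares over all kept genes; right, median difference from Control (log2) of each list in PGM, PGF, HM and HF, with the PGF point of the pituitary list, at 3.02, drawn at the edge. Lists with at least 8 kept members are shown, and HF lies closest to 0 in many of those whose other groups lie far out.

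Transcript length, which the rule did not use, moved with the side of Control. A length was known for 15212 of 17481 kept genes. Of genes whose longest transcript was at most 200 bases, 43.9% were above Control in all 4 groups and 9.55% below. The share above was 26.0% at 200 to 500 bases, 30.9% at 500 to 1000 and 33.3% at 1000 to 2000. Only beyond that did it fall from class to class, to 27.4% at 2000 to 4000 bases, 16.7% at 4000 to 8000 and 7.97% over 8000. The share below was 12.6% at 1000 to 2000 bases, 32.5% at 4000 to 8000 and 50.2% over 8000. Among protein-coding genes alone the longest class had 7.93% above and 50.4% below, and the class of 1000 to 2000 bases 33.8% and 11.9%. The share above did not fall steadily there either, since the 57 protein-coding genes of 200 to 500 bases had 15.8% above and 7.02% below. From the shortest to the longest class the median difference went from 0.26 to -0.15 in PGM, from 0.22 to -0.16 in PGF, from 0.20 to -0.10 in HM and from 0.25 to -0.025 in HF. The median length was 2821 bases for genes above Control, 4396 for genes below it and 3330 for mixed genes. GC content showed no such trend, with 19.8% to 25.5% above Control in 6 classes.

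**Figure D5:**
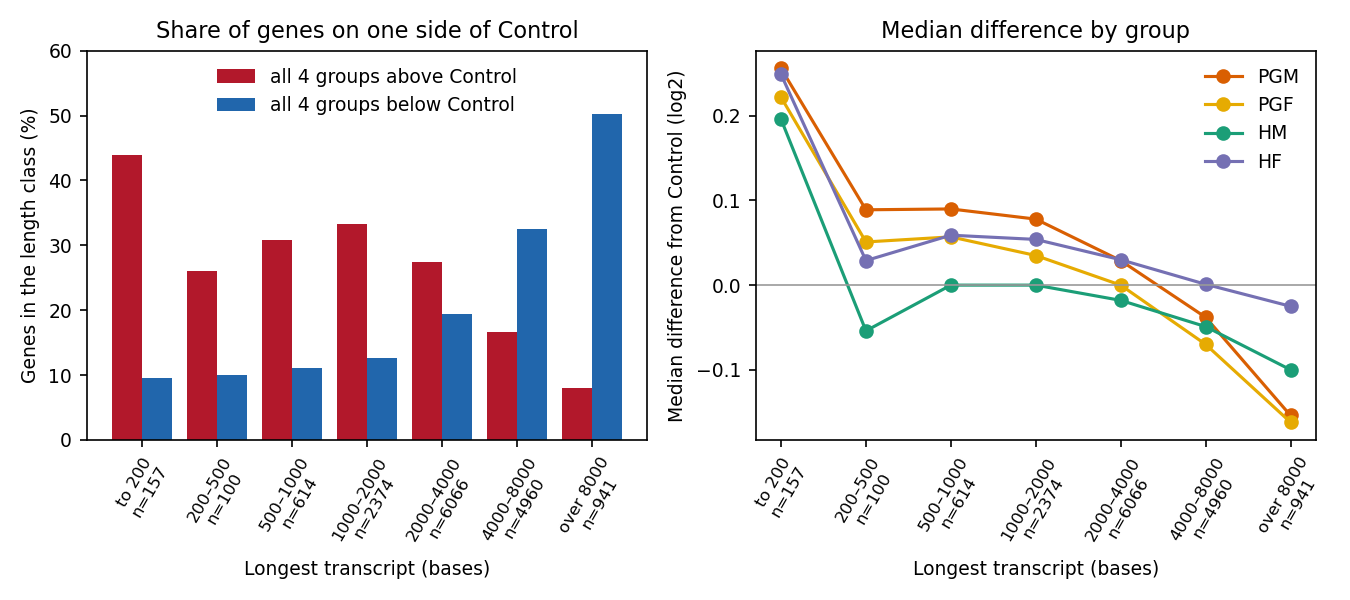
Left, share of kept genes with all 4 groups above Control (red) or below it (blue) by the length of the longest annotated transcript, in 7 classes with the number of genes under each; right, median difference from Control (log2) in each class for PGM, PGF, HM and HF. The share above falls to 7.97% and the share below climbs to 50.2% in the longest class, and HF has the smallest range over the longer classes.

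With each gene set against genes of like length, 19 genes were 1.5-fold higher than Control in each group, against 33 of the genes with a known length without that step. The snoRNA list then had 30 of 83 members above and 13 below, with a median of 0.14 in place of 0.34. Since snoRNAs make up much of the shortest class, this step sets them partly against themselves. The myelin list stayed at 18 above and 0 below, oxidative phosphorylation had 48 above and 2 below, and hypothalamic transcription factors had 18 below and 3 above. What underlies the length trend was not tested.

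Expression level and chromosome also differed in their shares. Genes under 2 RPKM had 15.9% above Control in all 4 groups and genes over 200 RPKM had 35.8%. Chromosome 18 had 16.7% of 426 genes above and 33.8% below, chromosome 17 had 23.6% above and 17.9% below, and the X chromosome had 22.5% above and 30.6% below. The remaining autosomes had 19.8% to 27.7% below.

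Transcripts of one gene name seldom lay on opposite sides of Control. Of 9438 gene names with more than 1 kept transcript, 1682 had every transcript above Control in all 4 groups and 1667 every transcript below, while 145 had transcripts on opposite sides. No name had transcripts at 1.5-fold on opposite sides. Ddx3x, an X-linked helicase whose Y-linked relative is Ddx3y, was one of these, singled out after its values were seen. Its transcript uc009uzn.2 was at 2.45 RPKM in Control, 15.4 in HF, 16.2 in HM, 29.5 in PGM and 30.9 in PGF. Its transcript uc012hey.1 was at 165 RPKM in Control, 161.7 in HF, 162.9 in HM, 148.6 in PGM and 143.7 in PGF. The first has nearly the values of Ddx3y, and the sources used here do not give how reads shared by such near-identical genes were counted.

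The minimum of 1 RPKM treats the directions unequally. A gene at 0 in the 4 groups needs 5 RPKM in Control to pass, while a gene at 0 in Control needs 1.25 in each of the others. Under the minimum, 49 names were 1.5-fold lower than Control in each group and 3 higher, so the 35 and 4 kept genes are not a measure of balance. Of the 49, 19 were microRNAs and 9 were crystallins. Cryge, a gamma crystallin of the lens with near-identical paralogs, was at 4.11 RPKM in Control, 0.04 in PGM and PGF, 0 in HM and 0.07 in HF. Of 28 lens genes 8 were kept. At the 1.5-fold line, Snora5c was just inside at 101 RPKM in Control, 163 in HF, 151 in HM, 151 in PGM and 250.5 in PGF and Snora28 just outside at 54.3 RPKM in Control, 89.96 in HF, 80.9 in HM, 96.2 in PGM and 138 in PGF. On the lower side Cyp2a5 was inside and Kdm6b outside.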

How the data were processed

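The authors deposited 1 table of RPKM per transcript and group, averaged over the samples of each group and rounded to 2 decimals, per the file headers. Reads were checked with FastQC and aligned with Novoalign 2.08 to mm10, per the submitters' processing notes. The sources used here do not give the counting program, its annotation, its use of strand, the library kit or the depth. RPKM divides by length and by mapped reads, so a value also depends on what other genes take, and a mean hides single samples. No values per sample were analysed, so a test, an SD or leaving out a sample could not be had.

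A stray second header line was dropped. The transcripts of each gene name were replaced by their median, and names whose 5 groups averaged at least 1 RPKM were kept (70.4%). Differences are log2(RPKM + 0.5) of each group minus Control, with the authors' scaling unchanged. Positions, lengths and biotypes come from GENCODE M21 (GRCm38, called mm10), which matched 15212 kept genes (87.0%), 13348 by symbol and the rest by a synonym. Of the names, 26 are 5-digit numbers, as gene symbols become when a spreadsheet reads them as dates, and these carry no function here.

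The 41 gene lists and the groups compared were chosen with earlier results of these data known. Of the listed entries, 15 were not found and 11 were found by a synonym. The naming rule took, among genes on one side of Control with at least 2 RPKM in Control or in the mean of the 4 groups and a name with a function, 15 per direction by mean difference, 15 per direction by the nearest group, 20 genes of thyroid hormone and neuropeptide signalling, and up to 4 members per list by the nearest group. This gave 191 genes, of which those that describe a group are printed and some are not reported here, and genes shown outside the rule, host genes, Mbp, Sim1 and other list members among them, were chosen after their values were seen. Alternatives were other pseudocounts, minimum levels, transcript summaries, scalings, folds and sets of groups. On simulated data with 200 of 17481 genes changed, the counting found 200 and no unchanged gene. The changes were set beyond 1.5-fold in all 4 groups and the noise was very small. This checks that the counting runs as written and says nothing on false calls in the real data. Python 3.11.15, numpy 2.4.6, pandas 2.3.3 and matplotlib 3.10.9 were used.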

Additional observations from a re-analysis of the deposited data

How the results depend on the processing

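No paired analysis was possible because the table holds only group means, and for the same reason no replicate could be left out. The count of genes with all 4 groups above Control (4071) stayed within 1.5 times under every alternative run except a distance of at least 0.1 on the log2 scale in each group, which gave 974. The count below Control (4374) became 1327 under that distance and 6642 without HF. Of the 35 genes 1.5-fold higher in each group, 9 passed at 2-fold, 72 passed without HF and 19 passed when centred on genes of like length, an alternative added after seeing the data that tests fewer genes. The 4 genes 1.5-fold lower in each became 1 with a pseudocount of 1, 0 with a mean of at least 3 RPKM, 0 at 2-fold, 53 with no filter and 52 without HF. The cause of these moves was not tested beyond the number of genes or groups that each alternative leaves. Of 533 list medians under an alternative, 28 had the other sign, from 15 of 41 lists. In 24 of these the median of all 4 groups was 0.09 or closer to 0. The other 4 were erythroid cells at 0.013 with no filter, lens at 0.16 and cerebellum and hindbrain at -0.10 with a mean of at least 3 RPKM, and the pituitary list at -0.23 without PGF. Of 2100 values of named genes, 4 had the other sign, from Npy, Cartpt and Pomc, which was at -0.31 without PGF. Depth is unknown, so no interval could be given, and levels near 1 RPKM are the least certain.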

Other observations

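Several gene groups that the text above does not describe were also counted against Control, by the same rule and with no test. Over all kept genes 23.3% were above Control in all 4 groups and 25.0% below. Among 35 potassium channels and genes of neuronal activity, 13 were above and 10 below. The channel subunit Kcnab3 was at 9.84 RPKM in Control, 13.1 in HF, 15.8 in HM, 16.5 in PGM and 18.3 in PGF, and the inward rectifier Kcnj4 at 7.41 RPKM in Control, 10.4 in HF, 9.22 in HM, 16.02 in PGM and 11.04 in PGF. Kcnh1, a channel of another family, was below Control at 17.8 RPKM in Control, 14.95 in HF, 14.5 in HM, 12.3 in PGM and 10.9 in PGF. The list therefore held members far out on both sides. Of 15 markers of tanycytes and ependyma 6 were above and 2 below: Ccdc153, a gene of ciliated ependymal cells, was at 8.08 RPKM in Control, 9.26 in HF, 11.955 in HM, 12.8 in PGM and 9.62 in PGF. Lhx2, a transcription factor of tanycytes and also of cortex, was at 4.72 RPKM in Control, 5.43 in HF, 6.71 in HM, 10.04 in PGM and 7.18 in PGF, with PGM highest. Crym, whose values are given with the thyroid hormone genes, is also in the tanycyte and ependyma list and was above Control.

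The circadian clock had 4 of 21 members above and 5 below. Npas2, a partner of the clock activator Bmal1, was at 4.74 RPKM in Control, 5.74 in HF, 6.54 in HM, 8.46 in PGM and 6.82 in PGF, while Per2, a repressor of the clock, was at 9.67 RPKM in Control, 8.90 in HF, 9.12 in HM, 8.32 in PGM and 7.73 in PGF. The related activator Arntl2 was at 0.78 RPKM in Control, 2.68 in HF, 1.37 in HM, 3.55 in PGM and 4.47 in PGF, from a low level in Control. Astrocyte markers were even, with 5 of 17 on each side, and microglial markers were mostly mixed, with 2 of 17 above and 1 below. Vascular markers had 1 of 21 above and 4 below, among them the endothelial receptor Kdr at 13.8 RPKM in Control, 12.5 in HF, 9.13 in HM, 8.89 in PGM and 11.6 in PGF, and 17 of the 21 were above Control in HF against 2 in HM. Interferon response genes had 5 of 23 above and 3 below, with 19 above Control in HF. Usp18, a brake on interferon signalling, was at 0.58 RPKM in Control, 1.42 in HF, 0.83 in HM, 0.84 in PGM and 1.37 in PGF.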
